A study of Mus musculus with 4 samples.

Results

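Aortic gene expression on a chow diet was set side by side for the C3H and C57BL/6 strains of mice. All animals of the study were female, 6 weeks old and without apolipoprotein E, a ligand that liver receptors use to clear lipoprotein remnants from blood. The comparison takes the array labelled C3H apoE-/- on chow against the array labelled C57BL/6 apoE-/- on chow, across all 22626 probe sets that are not controls. These are 2 of the 4 arrays of the series, and the other 2 hold aorta of the same strains after 2 weeks of Western diet. Weaning was at an age of 3 weeks, and the Western diet began at 4 weeks. The study's design names the C3H mice as C3H/HeJ, a substrain with a defective Tlr4. The labels do not say how many animals gave the RNA of an array, nor how the aorta was trimmed.

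Each strain had 1 array on chow, so no difference below has a replicate error, a test or a p-value. Size was instead read against the spread among probe sets of the same gene and among genes of the same group. Unless stated otherwise, 4 signals in a row are in the order C57BL/6 chow, C3H chow, C57BL/6 Western and C3H Western. They are quantile-normalized array intensities, which may be compared between arrays for a gene and not between genes. Sums of signals over a list include members under the floor and mostly follow its brightest genes. Log2 differences are C3H minus C57BL/6 on chow. Signals at or under 83.6, the 40th percentile of all values, were treated as too dim to measure. For a gene with 1 chow array at or under this floor, the fold was computed from the floor itself and is written "at least".

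The wall of the aorta is made of smooth muscle cells that contract, and of an extracellular matrix of elastin and collagen that recoils and bears load. An endothelium lines the lumen, and fibroblasts, nerves and fat surround the vessel. Fat around the mouse thoracic aorta is largely of the brown type, whose mitochondria burn fatty acids for heat through uncoupling protein 1. Without apolipoprotein E, the C57BL/6 strain is known as prone to atherosclerosis and the C3H strain as resistant.

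The gene removed by design, Apoe, was under the floor on every array, with signals of 19.1, 16.1, 65.3 and 55.5. Where its probe set lies relative to the deleted part is not given here. Xist, transcribed from the inactive X chromosome of females, gave 401, 952, 364 and 421 with its probe set of the highest mean. Smooth muscle markers were bright in the aorta of both strains, with all 21 genes of the contractile list above the floor on all 4 arrays. The C3H chow array stood apart from the rest. Its Pearson correlation with the C57BL/6 chow array over all 22626 probe sets was 0.705, the lowest of the 6 pairs, whose others lay between 0.725 and 0.761. Its spiked BioB, BioC, BioD and Cre hybridization controls (9 probe sets) were a median of 1.79 times those of the C57BL/6 chow array. Further probe sets for the same spikes, not in this median, ran from 1.16 to 1.98 times. The actin control's ratio of 3' to 5' signal, which rises when RNA is degraded, was 2.28 on the C3H chow array against 1.64, 1.83 and 1.63 on the C57BL/6 chow, C57BL/6 Western and C3H Western arrays. The same ratio for Gapdh was 1.19 against 1.03, 1.28 and 1.15. This array is 1 side of every comparison below and cannot be left out. The part of these values in the differences was not tested.

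Of the 22626 probe sets, 10522 were above the floor on both chow arrays. Among these, 863 (8.2%) were at least 2-fold higher in C3H and 941 (8.94%) at least 2-fold lower, which makes 17.1% in either direction. The log2 differences had an SD of 0.76 and a median of 0.03, so a 2-fold gap was common on these arrays. Differences of 4-fold or more were found for 52 probe sets above and 95 below, and of 8-fold or more for 5 and 15. A further 6105 probe sets were above the floor on 1 of the chow arrays, of which 846 were at least 2-fold higher by bound and 850 lower. The remaining 5999 were under it on both.

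**Figure D1:**
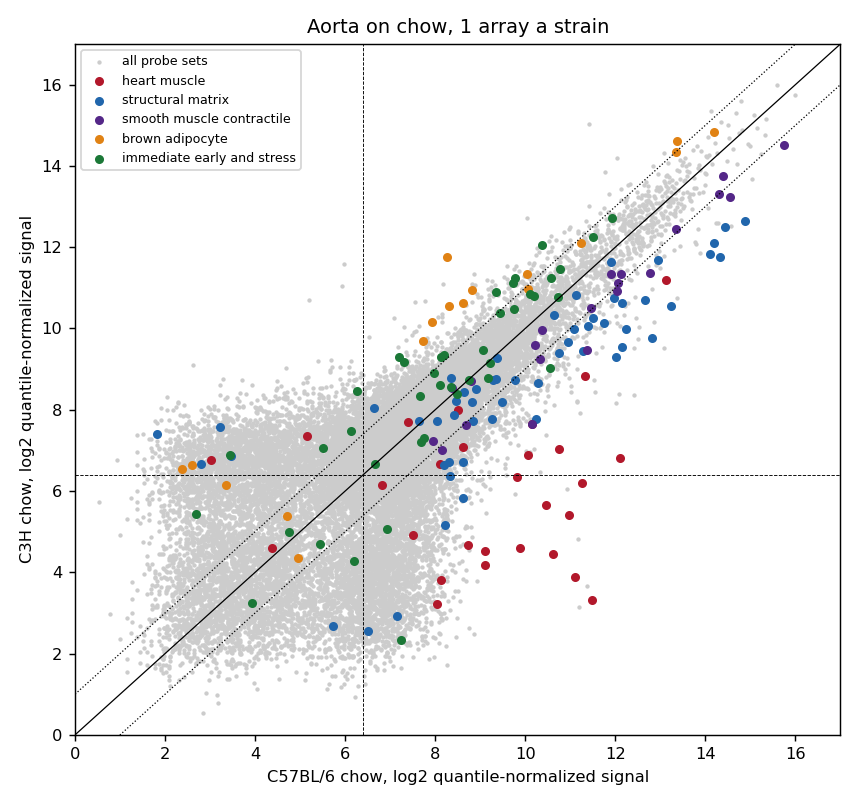
Signals of 22626 probe sets (grey) and of the brightest probe set of each gene in 5 gene lists (colours), as log2 quantile-normalized signal on the C57BL/6 chow array (horizontal axis) and the C3H chow array (vertical axis). The solid diagonal marks equal signals, dotted lines 2-fold differences, and dashed lines the floor at a signal of 83.6. Most matrix, contractile and heart muscle genes lie under the diagonal, and brown adipocyte genes lie over it.

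Several probe sets of a gene are separate measurements of its RNA on the same pair of arrays, and 2047 genes had 2 or more above the floor on both. Within such genes the log2 differences of single probe sets had a pooled SD of 0.62, against 0.76 over all 4973 probe sets concerned. The 2 brightest probe sets of a gene correlated with a Pearson r of 0.37 across genes, which share the arrays and are not replicates. Of 664 genes with any probe set at least 2-fold different, 23 (1.12% of the 2047) had every measured probe set at least 2-fold higher in C3H and 50 (2.44%) had every one lower. In 17 genes (0.83%) probe sets differed 2-fold in opposite directions. Of the 50 lower genes, 14 (28%) belonged to the lists of matrix and fibroblast genes, which hold 37 (1.81%) of the 2047, and 3 (6%) to those of contractile and heart muscle genes, which hold 10 (0.49%). Of the 23 higher genes, 6 (26.1%) belonged to the fat cell and fatty acid lists, which hold 23 (1.12%). The lists were chosen with earlier results of these data known, so these shares describe the lists and are no test of enrichment.

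**Figure D2:**
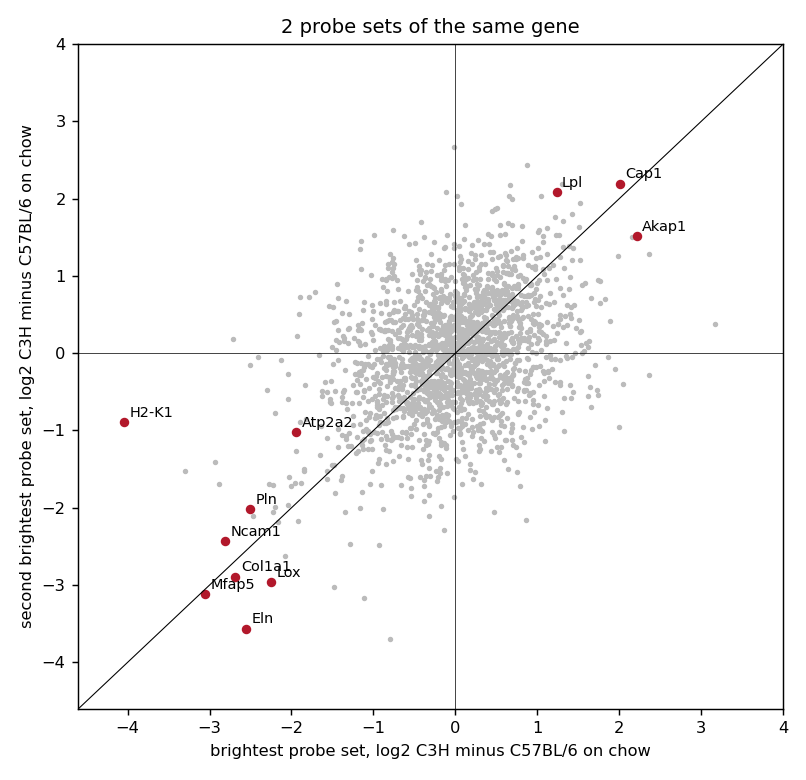
Log2 difference (C3H minus C57BL/6, chow) of the brightest probe set of a gene (horizontal axis) against that of its next brightest (vertical axis), for genes with 2 or more measured probe sets; each point is a gene and the diagonal marks equal differences. Mfap5, Eln, Col1a1 and Lox lie low on both axes, Lpl, Cap1 and Akap1 high on both, and H2-K1 is low on its brightest probe set alone.

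Genes of the extracellular matrix were lower in the C3H aorta on chow as a group. Over the lists of fibrillar and type VI collagens, basement membrane, elastic fibre and proteoglycan genes, 32 of 45 measured genes were at least 1.5-fold lower and 1 was higher, with a median log2 difference of -1.29. Among all 6605 measured genes, each by its brightest probe set, 20.4% were at least 1.5-fold lower and 20.8% higher, with a median of 0.03. These shares are the background for the 1.5-fold chow counts of every list below. In the pair of Western arrays, 2 of 49 of these matrix genes were lower and 13 higher, with a median of 0.25, where 13.4% of all measured genes were lower and 13.3% higher. In bulk tissue, fewer cells of a type and less RNA per cell cannot be told apart.

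Fibrillar collagens form the ropes that give the vessel its tensile strength, and type VI collagen a beaded mesh around cells. Of 11 measured members of this list, 10 were lower and 1 higher, with a median of -1.62. Col1a1, a chain of type I collagen, gave signals of 9717, 1512, 1719.6 and 2782, a 6.43-fold lower value in C3H on chow. Its other probe set gave 5479, 739, 1347 and 1350.1. The C57BL/6 chow array was far above the other 3 in both probe sets, and the C3H chow array was the lowest in both. The partner chain Col1a2 gave 18678, 4423, 6736 and 9397, and Col3a1, the chain of type III collagen, gave 22024, 5807, 6619 and 10570.5. Col5a2, a chain of the type V collagen that helps to start fibrils, gave 4538, 744, 1238 and 1984. Type VI chains Col6a1, Col6a2 and Col6a3 differed by -1.62, -1.52 and -1.85 on the log2 scale. For 9 of the 11 genes, C57BL/6 chow was the highest and C3H chow the lowest of the 4 arrays. That held for 608 of the 941 probe sets at least 2-fold lower in C3H. Its share over all measured genes was not counted, for this list or those below. The exception in direction was Col12a1, which sits on fibril surfaces and gave dim signals of 99.9, 263, 179 and 82.7. Col5a3 was above the floor on C57BL/6 chow at 142 and 7.58 and Col2a1, a cartilage collagen, was under it on both.

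Elastic fibres are built from elastin laid on microfibrils and joined by lysyl oxidases. Of 12 measured members, 8 were at least 1.5-fold lower, none higher, and the median was -1.33. By bound 2 further members were lower and 1 higher. Elastin, Eln, gave 20521, 3487, 4669 and 7701 with its brightest probe set and 8691, 735, 487 and 804 with the other, so that C57BL/6 chow stood above the other 3 arrays in both. Mfap5, a microfibril-associated glycoprotein, gave 7224, 869, 1708 and 1959 and, with its other probe set, 3003, 346, 653 and 863. Among genes whose probe sets agreed, Mfap5 had the widest mean difference on chow, with -3.05 and -3.12 on the log2 scale. Mfap4 gave 4149.5, 632, 1028 and 2486. The crosslinking enzyme Lox gave 4815, 1012, 1705 and 1902, and its relative Loxl1 1982, 814, 978 and 1044. Fbln5, which guides elastin onto the microfibrils, gave 4036, 1723, 2387 and 2894. The other members did not reach 1.5-fold, namely Fbln2 at -0.09, Ltbp1 at -0.30, Ltbp2 at 0.09 and Ltbp3 at -0.32. C57BL/6 chow was the highest and C3H chow the lowest array for 8 of the 12.

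Small proteoglycans bind collagen fibrils and set their spacing, and 7 of 8 measured members were lower, with a median of -1.45, besides 1 lower and 1 higher by bound. Bgn, biglycan, gave 17604, 3643, 10264 and 12001, and its other probe sets differed by -1.69 and -1.63. Ogn, Lum and Dcn also bind collagen. The signals of Ogn were 6503, 1671, 4079 and 4850. Lum gave 1247, 401, 601 and 1356, and Dcn gave 7920.4, 3291, 6377 and 5456, so C3H chow was the lowest array for each. Enzymes that modify and join collagen chains were mixed, with 8 of 15 lower and 2 higher and a median of -0.66. Serpinh1, the collagen chaperone of the endoplasmic reticulum, gave 2829, 1074, 1513 and 548 and Pcolce2, an enhancer of procollagen cleavage, 806, 144, 452 and 375. P4ha1, a proline hydroxylase of collagen, was higher at 91.5, 226, 102 and 176.

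In the basement membrane list, 7 of 14 genes were lower and none higher, with a median of -0.58. The members split by chain. Col4a5 gave 1215, 219, 684 and 790.4, and Sparc, a collagen-binding glycoprotein, 30108, 6441, 9342 and 11662, whereas the common chains Col4a1 and Col4a2 differed by -0.26 and -0.31. Laminin chains Lamb1, Lamb2 and Lama5 differed by -0.24, -0.19 and -0.39, all under 1.5-fold, and Lama2 by -1.29. Matricellular proteins, which signal from the matrix to cells, were lower in 6 of 12 genes and higher in 1. Postn, periostin, gave 8117, 2884, 5604 and 6854, while Thbs1 and Comp differed by 0.08 and 0.02. Among matrix proteases and their inhibitors 3 of 9 were lower and 1 higher. Timp2 gave 4395, 1067, 2496 and 2789, with differences from -2.34 to -0.60 over 5 probe sets, and Mmp2, the gelatinase it controls, 663, 323, 292 and 516. Timp3 went the other way on its brightest probe set, at 4254, 6471, 3959 and 5148, but its other sets ran from -1.34 to 0.22.

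Genes of fibroblasts, the cells that lay down much of this matrix, were lower in 10 of 13 measured genes and higher in none, with a median of -0.95. Dpt, dermatopontin, gave 3909, 1523, 1830.03 and 2412, Scara5, a ferritin receptor, 895, 359, 533 and 608, and Pi16, a marker of adventitial fibroblasts, 1110.4, 574, 483 and 564. The receptor Pdgfra was above the floor on C57BL/6 chow and under it on C3H chow, at 272, 56.3, 233 and 224. Summed over the list's members on the array, fibroblast signals were 55670.5, 30788, 41893 and 45173, so C3H chow was the lowest of the 4. The part of fibroblast content in the matrix differences was not tested.

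**Figure D3:**
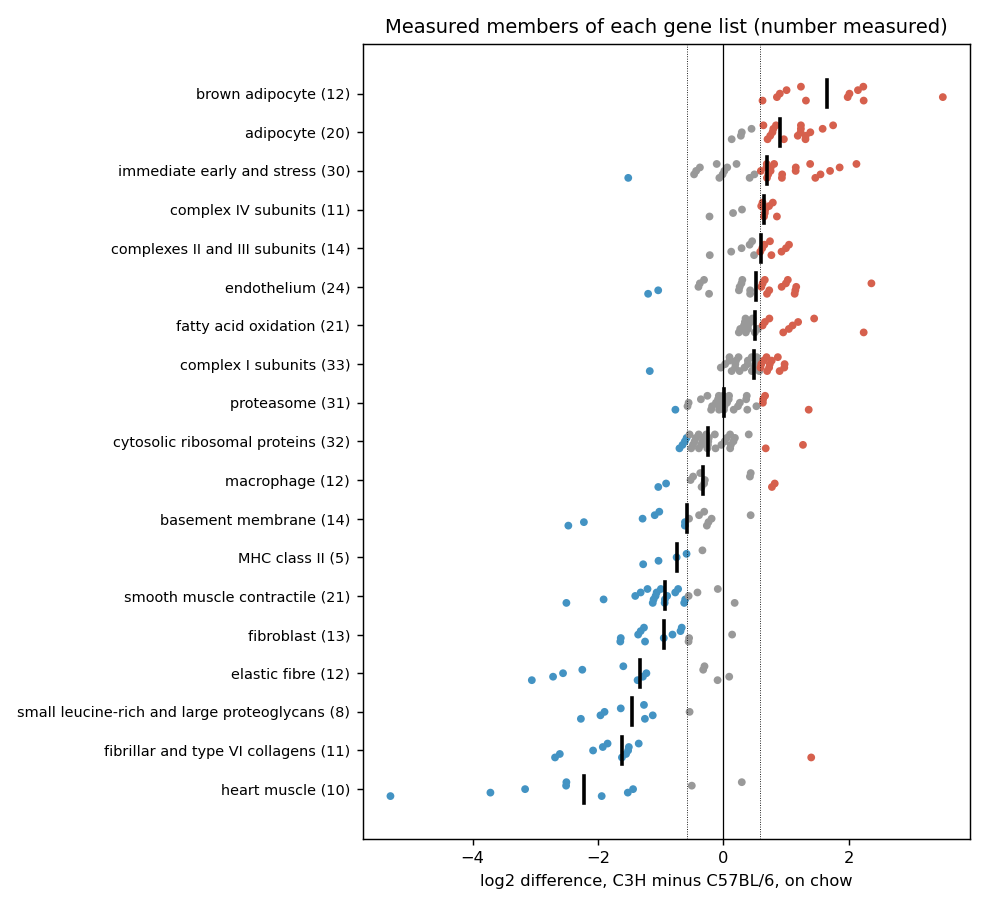
Log2 difference (C3H minus C57BL/6, chow; horizontal axis) of each measured gene in 19 gene lists (rows, with the number measured), as points, with black bars for list medians and dotted lines at 1.5-fold. Points at least 1.5-fold higher are red and lower blue; medians run from -2.22 for heart muscle to 1.65 for brown adipocyte genes, and proteasome genes centre on 0.01.

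Contractile genes of smooth muscle were lower in the C3H aorta by smaller factors than the matrix genes. Of 21 measured members, 17 were at least 1.5-fold lower and none was higher, with a median of -0.94. At 2-fold 9 of the 21 were lower, where 9.1% of all measured genes were. In the Western pair the median was -0.03. Acta2, the actin of vascular smooth muscle, gave 54541, 23565, 40729 and 34861. Its myosin heavy chain Myh11 gave 10426, 5598, 8093 and 7920.4, and the light chain Myl9 20288, 10159.7, 16929 and 18838. Tagln, which binds actin filaments, gave 23900.4, 9574, 18838 and 18678. Cnn1, which also binds them, gave 6948, 2622, 4320.3 and 6948. C3H chow was the lowest array for all of these. The kinase that starts contraction, Mylk, gave 4227, 1954, 2432 and 2522. C57BL/6 chow was the highest and C3H chow the lowest array for 12 of the 21, with no share over all genes counted. The integrin Itga8 gave 2666, 709, 1630.01 and 2128, the widest gap after Pln. Pln, which restrains the calcium pump of the sarcoplasmic reticulum in both smooth and heart muscle, gave 1135, 200.1, 900.2 and 179.9. Srf, the factor that binds promoters of contractile genes, gave dim signals of 283, 129, 309 and 144, and its coactivator Myocd differed by -0.09. Des, desmin, was the 1 member above 0, at 0.18. Summed signals of the list were 166327, 80768, 129812 and 127657, of which C3H chow was the lowest.

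Heart muscle genes gave the widest differences of any list, and most were at or near the floor in C3H. Of 28 genes on the array, 10 were measured on both chow arrays, of which 8 were lower and none higher at 1.5-fold, with a median of -2.22. Another 14 were lower by bound and 1 higher by bound. Actc1, cardiac actin, gave 4417, 111, 3428 and 50.7, a 39.6-fold difference on chow. Myl7, the light chain of atrial myosin, gave 2876, 9.94, 2216 and 10.5, at least 34.4-fold lower. Sln, which restrains the calcium pump in the atria, gave 2215, 14.8, 1224 and 5.79, and Myl4, another atrial light chain, 1575, 21.7, 1034 and 58.7. Myh6, the myosin heavy chain of the adult mouse heart, gave 2460.1, 73.8, 2463 and 132. Tnnt2, cardiac troponin T, gave 2009, 42.6, 1294 and 11.5. Mb, the oxygen store myoglobin, gave 2576, 453, 1857 and 211, and the atrial hormone Nppa 548, 23, 487 and 120.5. In each of these genes both C57BL/6 arrays were high and both C3H arrays low, whatever the diet. The list's median in the Western pair was -1.97.

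Summed heart muscle signals were 37891, 4856, 28715 and 4208. Atp2a2, the calcium pump of heart and smooth muscle, gave 8971, 2336, 7599 and 2003, with all 4 of its probe sets lower in C3H on chow, from -2.76 to -1.02. Tcap, at the Z disc of striated muscle, gave 1099, 124, 1109.8 and 231. Csrp3, another Z disc protein, gave 1065, 119, 567 and 179. Ankrd1, a stress-responsive gene of heart muscle, gave 1728, 132, 679 and 67.8. Exceptions were Hrc, a calcium binder, at -0.50, and Tbx20, a cardiac transcription factor, at 0.29. Genes of fast skeletal muscle were less uniform, with 5 of 10 measured lower and 3 higher at dim signals, and a median of -0.49. By bound 3 more were lower and none higher. Their median in the Western pair was 0.17. The defining fast myosin Myh4 gave 102, 15.6, 93 and 113. On chow the heart genes were lower in C3H along with matrix and contractile genes. On Western diet they were lower too, while the matrix median was above 0. Their part in the other differences was not tested.

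Binding sites of Srf, known as CArG boxes, were searched in the 250 bases before the start of each gene in RefSeq's promoter table (GRCm38.p6), because most contractile and cardiac genes were lower in C3H. This search was chosen after the values were seen, and the box reads the same on both strands. A box was found in 1.47% of 32851 promoter windows and for 1.62% of 27025 genes. It was found for 2 of 17 contractile genes with a window (11.8%) and 4 of 25 heart muscle genes (16%). These windows carry the box in capitals, each 5' to 3' on the strand of its gene:
Actc1: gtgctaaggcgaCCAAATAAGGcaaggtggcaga
Myl7: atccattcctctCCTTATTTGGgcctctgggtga
Myl3: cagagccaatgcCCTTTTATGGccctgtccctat
Myl9: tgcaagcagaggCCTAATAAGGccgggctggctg
Srf: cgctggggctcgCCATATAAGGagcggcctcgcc
They lie at chr2:114052901-114052934 on the minus strand (Actc1), chr11:5898822-5898855 minus (Myl7), chr9:110763581-110763614 plus (Myl3), chr2:156775291-156775324 plus (Myl9) and chr17:46556223-46556256 minus (Srf). All lie upstream of the annotated start of transcription, by 47, 61, 85, 161 and 82 bases. Genes with a box ranged from a difference of -5.31 for Actc1 to -0.07 for Zfp36, an immediate early gene, among those measured in these lists. In the immediate early list a box was found for 2 of 34 genes (5.88%), Zfp36 and Egr2. Egr2 has a box in each of 2 windows and was higher in C3H by bound, with signals of 45.4, 134, 12 and 135. Srf holds a further box in its window, and the windows printed are all from genes that were lower. Among measured genes at least 2-fold higher in C3H, 16 of 425 with a window had a box (3.76%), and among those lower 11 of 479 (2.30%). A match is a description of the letters and not evidence of binding.

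Brown fat genes were higher in the C3H aorta on chow in every measured case. All 12 measured members were at least 1.5-fold higher, 9 of them at least 2-fold, where 20.8% of all measured genes were higher at 1.5-fold and 8.01% at 2-fold. The list's median was 1.65 on chow and 0.10 in the Western pair. Ucp1, the uncoupling protein that makes heat, gave 10640.1, 25040.3, 9098 and 10130.1, so C3H chow stood above 3 arrays of similar signal. Dio2, which activates thyroid hormone in stimulated brown fat, gave 306, 3451, 361 and 457, an 11.3-fold difference and the largest among higher genes with a single measured probe set. Its 2 other probe sets, with C57BL/6 chow under the floor, gave 9.73, 433, 8.19 and 36.3 and 60.5, 2128, 267 and 261. In all 3, C3H chow was alone at the top.

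Ppargc1a, the coactivator that drives mitochondrial gene expression in response to cold, gave 211, 831, 211 and 121. Its 5 measured probe sets were all higher, from 0.81 to 1.98. Its relative Ppargc1b gave 389.9, 1568, 649.9 and 544, and Elovl3, a fatty acid elongase induced by cold, 318, 1490.3, 456 and 342. The potassium channel Kcnk3 gave 450.2, 1989, 649 and 697. Other brown fat markers differed less. Cidea, a lipid droplet protein, gave 10386, 20856, 13143 and 17796. Cox8b, a respiratory subunit of muscle and brown fat, gave 18838, 29004, 23565 and 25040.3. C3H chow was the highest and C57BL/6 chow the lowest array for 10 of the 12. That held for 464 of the 863 probe sets at least 2-fold higher in C3H, and its share over all genes was not counted. The exceptions were Ucp1, lowest on C57BL/6 Western, and Ppargc1a, lowest on C3H Western. The nuclear receptor Ppara gave 244, 1149.7, 1043 and 962, so that C57BL/6 chow was low against 3 similar arrays. Brown adipocyte signals summed to 46412, 94696, 55932 and 62722. Their part in the mitochondrial and lipid differences below was not tested.

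A cyclic AMP response element, the letters TGACGTCA on either strand, was searched in the same way and after the values were seen, since Dio2 and immediate early genes are targets of that pathway. It was found for 1.77% of all genes, 1 of 13 brown adipocyte genes (7.69%) and 3 of 34 immediate early genes (8.82%), with none among 17 contractile and 25 heart muscle genes. Windows of a brown fat gene and of 2 immediate early genes that were higher in C3H carry it in capitals:
Dio2: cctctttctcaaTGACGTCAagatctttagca
Dusp1: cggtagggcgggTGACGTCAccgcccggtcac
Btg2: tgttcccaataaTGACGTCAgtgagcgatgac
They lie at chr12:90739114-90739145, chr17:26508596-26508627 and chr1:134079302-134079333, all on the minus strand and 95, 143 and 166 bases before the start. Over genes at least 2-fold higher in C3H the element was found for 2.35%, under the 3.12% of all measured genes with a window.

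Genes of fat cells in general were also higher. Of 20 measured members, 16 were at least 1.5-fold higher and none lower, with a median of 0.90 on chow and -0.13 in the Western pair. Lpl, the lipase that frees fatty acids from lipoproteins, gave 17796, 41872, 26196 and 23565 and, with its other probe set, 3487, 14752, 5339 and 5598. Pnpla2, which starts the breakdown of stored fat, gave 3239, 7361, 5043 and 4486. Dgat1 and Dgat2 complete triglyceride synthesis. The former gave 889, 2984, 950.2 and 1145. The latter gave 5000.4, 11760.4, 6391 and 6107, and its other measured probe set differed by 0.26. Slc2a4, the insulin-responsive glucose transporter, gave 787, 2054, 875 and 894, and Car3, a carbonic anhydrase abundant in fat, 8653, 20288, 12809 and 11602. In each of these 6 genes C3H chow was the highest array. General markers differed by less, with 7958, 14216, 12257 and 13723 for the hormone adiponectin, Adipoq, and 26196, 40729, 28554 and 30108 for the fatty acid carrier Fabp4, whose 4 probe sets ran from 0.15 to 1.69. Pparg, the master factor of fat cell formation, differed by 0.29, under 1.5-fold. Summed adipocyte signals were 93482, 185041, 122247 and 119926.

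Enzymes of fatty acid oxidation were higher in 9 of 21 measured genes and lower in none, with all 21 above 0 and a median of 0.50. Slc25a20, which carries acylcarnitines into mitochondria, gave 2294, 5232, 4025 and 3964, and both of its probe sets were at least 2-fold higher. Etfdh, which passes electrons from fatty acids to the respiratory chain, gave 1948, 4182, 3744 and 3345, and the kinase Pdk4, which spares glucose, 4359.7, 7239.8, 7762 and 5292. Hadh, of the oxidation cycle, gave 23182, 32763, 41872 and 27579. Acadm, of the same cycle, gave 10343, 12257, 16223 and 9560.3. For Pdk4, Hadh and Acadm it was C57BL/6 Western that was the highest array. Fatty acid and triglyceride synthesis genes also leaned higher, with 8 of 16 higher, 2 lower and a median of 0.50. Elovl6, an elongase, gave 1426, 3433, 1349 and 2072 and Gpam, which starts glycerolipid synthesis, 1541, 4118, 2597 and 2099.6. The desaturases Scd1 and Scd2 differed by -0.22 and -2.04, with -0.27 on another probe set of Scd2, and the synthase Fasn by 0.40.

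Subunits of the respiratory chain and ATP synthase were mostly higher in C3H on chow by small amounts. Of 74 measured subunits, 66 were above 0, 32 were at least 1.5-fold higher and 3 lower, with a median of 0.50. Among all measured genes 20.8% were higher and 20.4% lower. In the Western pair none was higher, 5 were lower and the median was -0.08, where 13.3% of all measured genes were higher and 13.4% lower. Cytochrome oxidase, complex IV, showed this most evenly, with 8 of 11 higher, none lower and a median of 0.65. Cox6b1 gave 28554, 49264, 29004 and 31398, Cox4i1 11005, 18211, 13780.5 and 13616 and Cox5b 16929, 26850.2, 21405 and 20521. For 10 of these 11 genes C3H chow was the highest and C57BL/6 chow the lowest array. Complexes II and III had 8 of 14 higher and a median of 0.60, with 4829, 9172, 8691 and 7361 for the core subunit Uqcrc2 and 4459, 9197, 6575 and 7194 for the electron carrier cytochrome c, Cycs. Complex I had 12 of 33 higher and a median of 0.49. ATP synthase had 4 of 16 higher (25%), near the share of all measured genes, and 2 lower, with a median of 0.35.

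The 3 lower genes were Atp5g1, Ndufa12 and Atpif1. Atp5g1, which encodes the rotor ring of ATP synthase, gave 773, 112, 586 and 218, and its sister genes Atp5g2 and Atp5g3 differed by 0.10 and -0.27. Ndufa12, of complex I, gave 6721, 2977, 7423 and 2284 and was low in both C3H arrays, but 2 further probe sets differed by 0.47 and -0.29. The inhibitor of ATP synthase, Atpif1, gave 303, 152, 336 and 338, and its other probe set differed by -0.14. Cox6a2, the heart and skeletal muscle form of a complex IV subunit, gave 943, 24.1, 676 and 51.4, high in both C57BL/6 arrays as the heart muscle genes were. The citric acid cycle had 6 of 18 higher and 1 lower, with a median of 0.40, and glycolysis 5 of 15 and 2 lower, with 0.48. Citrate synthase, Cs, gave 6776, 11602, 7875 and 8021, and Hk2, the hexokinase bound to mitochondria, 1149, 3036, 1499 and 1508.

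**Figure D4:**
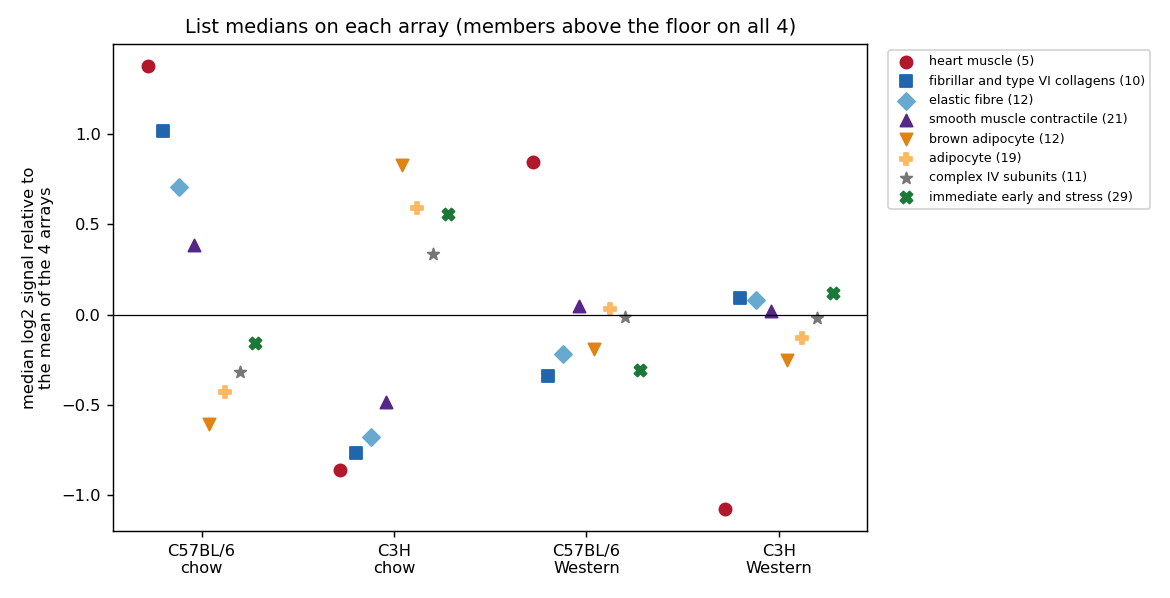
Median log2 signal of 8 gene lists on each of the 4 arrays (groups on the horizontal axis), relative to each gene's mean over the 4 arrays, over members above the floor on all 4 (numbers in the legend). Fibrillar and type VI collagens lie at 1.01 on C57BL/6 chow and -0.76 on C3H chow, brown adipocyte genes at -0.61 and 0.83, and the Western arrays lie between them for both lists, whereas heart muscle genes separate the strains on both diets.

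Endothelial genes were higher more often than lower, with 12 of 24 measured members at least 1.5-fold higher, 2 lower and a median of 0.51. In the Western pair the median was 0.16. Flt1, a receptor of vascular endothelial growth factor, gave 190.1, 975, 515 and 157, with its 3 probe sets between 0.74 and 2.36. The main signalling receptor Kdr gave 265, 539, 272 and 620.4, high in both C3H arrays. Cldn5, of tight junctions, gave 1221, 2702, 1486 and 1949, Icam2, of resting endothelium, 384, 844, 291 and 644, and Nos3, which makes nitric oxide, 375, 713, 510.5 and 524. The general markers Pecam1 and Vwf differed the other way by under 1.5-fold. Pecam1 gave 1815, 1398, 1884 and 1759, and Vwf gave 1451, 1171, 1731 and 891. The lower genes were the ligands Efnb2 and Jag1, known from arterial endothelium. Efnb2 gave 484, 210.4, 233 and 452, and Jag1 gave 185, 89.8, 96.7 and 191. Rbp7, a retinol binding protein of fat endothelium, had the largest higher difference by bound of any gene, at least 36.9-fold, with signals of 63.1, 3083, 284 and 1060.4.

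Genes that respond to low oxygen were higher in 8 of 16 cases and lower in 1, with a median of 0.58. Vegfa, the growth factor for endothelium, gave 165, 550.1, 63.2 and 345, and Epas1, a hypoxia-inducible factor of endothelium, 113, 397, 327 and 235. Pfkfb3, which speeds glycolysis, gave 327, 889, 501 and 436. The glucose transporter Slc2a1 was lower at 305, 187, 337 and 303, though 1 of its 3 probe sets differed by 0.30, and Hif1a and Pdk1 differed by 0.18 and -0.06. Of leukocyte adhesion genes, Vcam1 gave 182, 124, 423 and 568, brighter on both Western arrays than on both chow arrays. Icam1 gave 114, 188, 179 and 309.5, with C57BL/6 chow the lowest and C3H Western the highest.

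Immediate early genes, which cells switch on within minutes of a stimulus, including the handling of tissue, were mostly higher in C3H. Of 30 measured members of the immediate early and stress list, 18 were at least 1.5-fold higher and 1 lower, with a median of 0.69 on chow and 0.41 in the Western pair. Nr4a1, an orphan nuclear receptor, gave 1316, 4274, 809.9 and 2107, and Klf2, induced by blood flow in endothelium, 876, 2417, 667 and 2231. The stress factor Atf3 gave 146, 633, 136 and 418 and the phosphatase Dusp1 3862, 6758, 1508 and 3559. Ier2 gave 281, 625, 307 and 601. In these 5 genes the C3H array was above the C57BL/6 array on both diets. Dusp6, which switches off ERK, gave 159, 573, 265 and 474. Sgk1, a stress-induced kinase, gave 848, 2208, 864 and 1120.1. Cebpb, a factor of inflammation and fat cell formation, gave 656, 1916, 882 and 649, and C3H chow was the highest array for all 3. Fos itself was the exception, with 1487, 519, 216 and 553, highest on C57BL/6 chow, and Mcl1 and Klf6 differed by 0.06 and -0.01.

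Heat shock genes did not share a direction. Of 21 measured, 4 were higher and 8 lower. Hspa8, the constitutive chaperone, gave 2737, 8202, 4169.9 and 7722, high in both C3H arrays, with its probe sets from 0.13 to 1.58, and mitochondrial Hspe1 553, 1042, 1188 and 1218. Cryab, a small heat shock protein of muscle, was lower at 1034, 210.4, 767 and 612. Its neighbour Hspb2 was lower at 936, 286, 527 and 595, and inducible Hspa1a differed by 0.19.

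**Figure D5:**
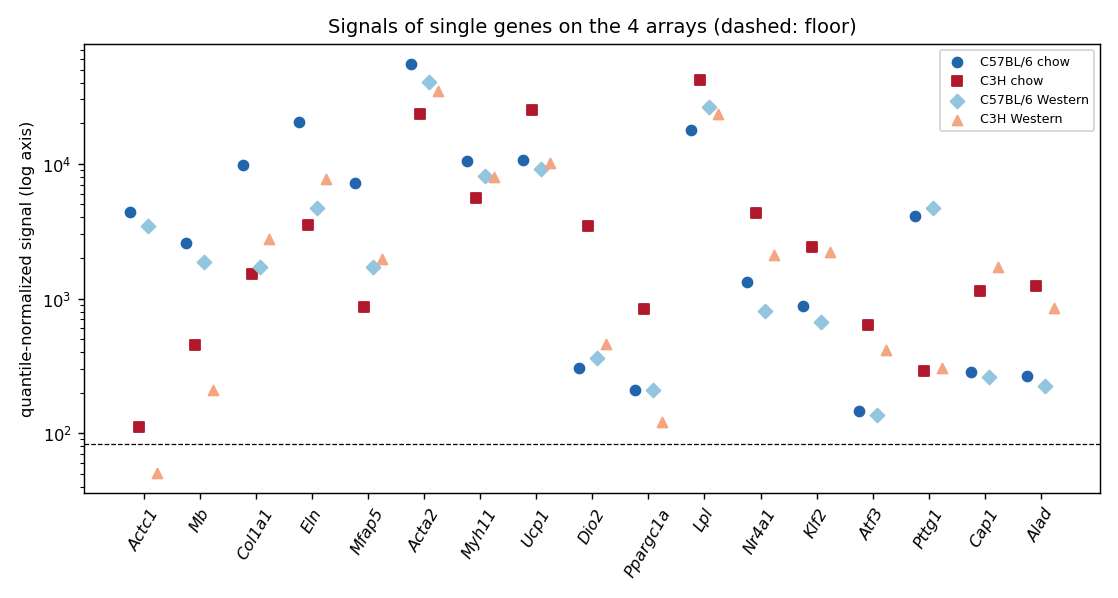
Quantile-normalized signal (vertical axis, log scale) of 17 genes on the 4 arrays, 1 point an array, with the floor of 83.6 as a dashed line. Col1a1, Eln and Mfap5 are highest on C57BL/6 chow, Ucp1, Dio2 and Lpl on C3H chow, and Actc1, Mb, Pttg1, Cap1 and Alad separate the strains on both diets.

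Genes of antigen presentation gave some of the least uniform readings. H2-K1, a classical class I molecule that is highly polymorphic between strains, gave 5418, 328, 5418 and 522 with its brightest probe set, a 16.5-fold lower value in C3H. Its other measured probe sets differed by -0.89 and 1.53, so the gene's level cannot be read from 1 of them. The same split held for H2-D1, where 1 probe set gave 1589.8, 279, 1613 and 219 and another 36.4, 1661, 72.4 and 1524. How far each probe set matches the alleles of both strains was not tested. The invariant partner B2m gave 8263, 5076, 10504 and 7398, and its other probe set differed the other way, by 0.83. Class II genes, carried by antigen-presenting cells, were lower in 4 of 5 measured cases, with a median of -0.75, while 2 further genes, H2-Ea and H2-DMa, were higher by bound. H2-Aa, counted as lower, gave 1304, 637, 1477 and 1338 on its brightest probe set, but its other set differed by 1.01. H2-Ab1 gave 310.01, 128, 289.8 and 191, and the invariant chain Cd74 689.6, 411, 989 and 735. The Western pair had 1 of 6 lower and a median of -0.08. Summed macrophage marker signals, from cells that carry class II, were 5328, 5051, 7274 and 8974. The median difference of that list on chow was -0.33, with 8 of 12 measured members below 0 and 4 above. The part of macrophage content in the class II difference was not tested.

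Leukocyte markers were dim and mixed. Of 24 macrophage genes on the array 12 were measured, 2 higher and 2 lower, with 800.4, 1082, 857 and 1519 for the growth factor receptor Csf1r and 1419, 1015, 1658 and 2160.2 for lysozyme, Lyz2. The pan-leukocyte gene Ptprc was under the floor on C3H chow, at 105, 34.1, 334 and 123. T and B cell, neutrophil and mast cell lists had 7, 3 and 1 measured members, and Cd3e, of the T cell receptor, gave 93.2, 59.8, 13.9 and 91.6. Tlr4, whose receptor does not signal in C3H/HeJ mice, gave 260.3, 39.2, 217 and 225, at least 3.11-fold lower on chow and similar in the Western pair. The chemokine Ccl2, which draws monocytes into lesions, gave 101, 22.8, 23.2 and 105. Interferon-stimulated genes had 3 of 14 higher (21.4%) and 2 lower (14.3%), where 20.8% and 20.4% of all measured genes were. By bound 2 more were higher. Gbp2b, an interferon-induced GTPase, was under the floor in both C57BL/6 arrays and above it in both C3H arrays, at 4.86, 287, 5.58 and 395. Complement genes were lower in 5 of 11 cases and higher in 2, and 2 more were higher by bound. C1ra gave 336, 102, 251 and 341, and its inhibitor Serping1 gave 2385, 1337, 2170.4 and 1915.

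Receptors and targets of TGF-beta and BMP, which govern matrix production, were lower in 9 of 25 measured genes (36%) and higher in 1. Of all measured genes 20.4% were lower and 20.8% higher. By bound 2 more of this list were higher. The receptor Tgfbr1 gave 442, 158, 331 and 351. The coreceptor Tgfbr3 gave 426, 169.8, 434 and 524, and the secreted target Tgfbi gave 1658, 604, 750.2 and 587, with its 4 probe sets from -1.46 to 0.04. C3H chow was the lowest array for both receptors. Id2, an inhibitor of helix-loop-helix factors induced by BMP, gave 2273, 298, 548 and 443, with other probe sets at -1.41 and 0.03. Ligands were mixed, with 0.04 for Tgfb2, -0.77 for Tgfb3 and -1.41 for Bmp4. Among insulin-like growth factors, Igf1 gave 607, 218, 249.6 and 469, with a further probe set at 0.41. Igf2 gave 481, 1103, 515 and 638 and the secreted binding protein Igfbp7 19421, 6223, 11602 and 11247. In the Wnt list 2 of 11 were higher (18.2%) and 4 lower (36.4%), besides 1 higher and 4 lower by bound. The receptor Fzd4 gave 454, 2193, 665 and 2190.4, high in both C3H arrays, whereas the antagonist Sfrp2 gave 909, 139.7, 414 and 672. Dkk3, a secreted protein related to Wnt antagonists, gave 881, 298, 811 and 611.

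Several housekeeping lists stayed near 0. Of 31 measured proteasome genes, 4 were higher and 1 lower, with a median of 0.01 that turned to -0.07, -0.19 and -0.04 with the deposited values, equal medians and cyclic loess. Psma6 differed most at 1.36, and its other probe sets at 0.37 and 0.71. Cytosolic ribosomal proteins had 2 of 32 higher and 4 lower, with a median of -0.25, and Rplp0 and Rps18 differed by -0.33 and -0.39. Actb, cytoskeletal actin, gave 40729, 27579, 32763 and 36523 with 1 probe set and 2566, 3744, 2259 and 2666 with the other, which differ in sign. Cholesterol synthesis genes, controlled by sterol supply, had 2 of 12 higher and 1 lower, and 3 more were lower by bound. Hmgcs1 differed by 0.27, with 4 measured probe sets that ran from -0.72 to 0.73, and Fdft1 by 0.35. The efflux transporters Abca1 and Abcg1 differed by 0.65 and -0.82, with the probe sets of Abca1 from -0.05 to 0.65.

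Beyond the genes above, agreement among probe sets singled out further genes. Cap1, a regulator of actin turnover, had the highest agreed difference, with 285, 1146, 262 and 1705 and, on its other probe set, 116, 529, 107 and 667. Both C3H arrays were above both C57BL/6 arrays in each. Akap1, which anchors protein kinase A at the mitochondrial surface, gave 285, 1318, 705 and 860.4, with a probe-set range from 1.52 to 2.21. Slc12a2, a sodium, potassium and chloride cotransporter, gave 282, 1252, 472 and 202, high on C3H chow and not on C3H Western. Entpd5, a nucleotidase of the endoplasmic reticulum, gave 182, 448, 279 and 331. Tecpr1, of autophagy, gave 227, 654, 383 and 352. The selenium enzyme Sephs2 gave 2034, 5794, 3877 and 3169, and all 3 of its probe sets were at least 2-fold higher. Other agreed higher genes were Mpzl2, Apbb2, Snrk, Mrpl48 and Tiparp, with mean differences over their probe sets between 1.39 for Tiparp and 1.61 for Mpzl2.

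Among agreed lower genes, Ncam1, an adhesion molecule of nerve and muscle, gave 2969, 423, 1769 and 1196 and, on its next probe set, 2072, 384, 1150.2 and 932. H1f2, a linker histone, gave 2365, 240.1, 1087 and 721, with a range from -3.30 to -1.52. Fblim1, of cell adhesion sites, gave 3338, 748, 2058 and 2529. Limch1, which acts on actin fibres, gave 2926, 1045, 2003 and 1892. Kcnab1, a subunit of potassium channels of smooth muscle, gave 1072, 233, 808 and 705. The choline transporter-like gene Slc44a2 gave 747, 101, 498 and 219, low in both C3H arrays. Col4a6, a minor chain of basement membrane, gave 939, 201, 272 and 195. In all of these but Col4a6 the C3H chow array was the lowest of the 4.

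Genes read by a single measured probe set are less certain, given the spread within genes of 0.62. Pttg1, securin, which holds sister chromatids together until anaphase, gave 4118, 288, 4716 and 305, a 14.3-fold lower value on chow and as wide a gap on Western diet. Fez1, known from axon growth, gave 755, 94.3, 466 and 34.8. Rpgrip1, a protein of the photoreceptor cilium, was lower by bound in both pairs at 2319.98, 28, 2208 and 73.7. Alad, an early enzyme of heme synthesis, gave 267, 1243, 225 and 846, high in both C3H arrays. Tmed5, of vesicle transport, gave 187, 1604, 348 and 679.7, and was 1.96-fold higher in the Western pair too. Noct, a rhythmic phosphatase, gave 158, 1058, 337 and 313, higher on chow alone. Rasd1, a steroid-induced small G protein, gave 462, 2581, 660.1 and 1022, Gsta4, which detoxifies lipid aldehydes, 199, 1074, 552 and 747, and the kininogen Kng1 144, 741, 409 and 349.5. By bound, Apoc1, an apolipoprotein gene that neighbours Apoe, gave 42.2, 585, 447 and 294, so C57BL/6 chow alone was low. Adssl1, Plekhh3 and Timm22 showed the same shape, at 51.4, 602, 220.3 and 286 for Adssl1. So did Cmip at 70.1, 586, 407 and 552, but its other probe set, measured on both chow arrays, differed by 0.35.

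The widest conflict among probe sets was in H2-K1, followed by Rgs5, a regulator of G protein signalling in pericytes and smooth muscle. Rgs5 gave 4086, 4049, 3926 and 6628 on its brightest probe set and 1053, 6679, 874 and 6758 on another, so both C3H arrays were high on the latter only, and a further set differed by -1.48. Srsf6, a splicing factor, ranged from -2.16 to 1.34 and Tcf25 from -1.39 to 2.00. Mrpl44, of the mitochondrial ribosome, ranged from -1.33 to 1.99, and Sf3b2, of the spliceosome, from -1.35 to 1.40. No single level is given for these genes.

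The Western arrays, which share no sample with the chow pair, show how far the chow difference was seen again between the strains. Of the 863 probe sets higher in C3H on chow, 714 were measured in the Western pair, 407 of these were above 0 and 58 (8.12%) were at least 2-fold higher, where 4.17% of all measured probe sets were. Of the 941 lower, 862 were measured and 490 of these (56.8%) were below 0. At least 2-fold lower were 81 (9.40%), where 4.24% of all were. The shares of all probe sets above and below 0 in the Western pair were not counted. In the opposite direction, 26 of the 714 were at least 2-fold lower, where 4.24% of all were. Likewise 21 of the 862 were at least 2-fold higher, where 4.17% of all were. C3H chow was the highest of the 4 arrays for 750 of the 863 and the lowest for 776 of the 941, and C57BL/6 chow was at the other end for 561 and 755. Because these probe sets were picked by the gap between the chow arrays, selection alone tends to place those arrays at the ends. The share of all probe sets with those arrays at the ends was not counted. Heart muscle genes, Pttg1, Cap1, Alad and Fzd4 thus differed between strains on both diets, while Mfap5, Eln, Col1a1, Ucp1, Dio2 and Lpl differed by at least 2-fold on chow alone.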

How the data were processed

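RNA of aorta was measured on 1-colour Affymetrix arrays, 1 for each of 4 groups, from 8 ug of total RNA extracted with Trizol, per the labels' protocols. Each array's deposited column holds linear intensities for 22690 probe sets (64 controls). The columns share a trimmed mean, so the authors had scaled them to 1 level. The software, the background step and any detection calls were not given in the sources used here. Log2 intensities of the non-control probe sets were quantile normalized over the 4 arrays. The floor was the 40th percentile of all values. Deposited medians were 118 and 128 on the chow arrays and 110.3 and 115 on the Western arrays.

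Names came from the platform annotation: 20380 probe sets name 1 gene, 691 several and 1555 none, for 12393 genes, and RefSeq (GRCm38.p6) updated 0 symbols. A gene was read by its brightest probe set over the 4 arrays. Probe sets were counted at 2-fold and list members at 1.5-fold, with no test and no error. The members and lists were chosen with earlier results of these data known. Genes were picked by rule: up to 15 a direction whose probe sets agree, 8 with a single measured set, 6 by bound and the 6 widest conflicts. The rule also took up to 6 measured members per list, its defining members and fixed single genes. Not all genes picked are given, and some lists are not described. Exceptions were chosen after their values were seen. Fold recovery was tested on simulated data with a smaller spread between arrays than seen here, which does not show how reliable the 2-fold counts are. Alternatives were the deposited values, equal medians, cyclic loess (limma 3.58.1, R 4.3.3), other floors and folds, and other probe sets. Python 3.11.15, numpy 2.4.6, pandas 2.3.3 and matplotlib 3.10.9 were used.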

Additional observations from a re-analysis of the deposited data

Results flagged for a closer look

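The median C3H minus C57BL/6 log2 difference on chow and that on Western diet had opposite signs for 34 of 54 gene lists, many of them close to 0. Given here are the 8 whose chow median was at least 1.5-fold and which had 8 or more members above the floor on all 4 arrays. With 1 array a group this difference between diets was not tested. Matrix lists were below 0 on chow and above 0 on Western diet: fibrillar and type VI collagens -1.62 and 0.49, proteoglycans -1.45 and 0.22, elastic fibre genes -1.33 and 0.20, fibroblast genes -0.95 and 0.16, and collagen-modifying enzymes -0.66 and 0.14. Hypoxia genes were at 0.58 and -0.17, complexes II and III at 0.60 and -0.17, and adipocyte genes at 0.90 and -0.13. For fibrillar and type VI collagens the C57BL/6 chow array stood farthest from the rest. Their signals summed to 69342, 17537, 22684 and 32755, in the order C57BL/6 chow, C3H chow, C57BL/6 Western and C3H Western. Other matrix lists differed in this, by median log2 signal relative to each gene's mean over the 4 arrays. Proteoglycans gave 0.59, -0.87, 0.11 and 0.27, with C3H chow farthest from the rest. Elastic fibre genes gave 0.71, -0.68, -0.22 and 0.08. Adipocyte signals summed to 93482, 185041, 122247 and 119926, with C3H chow apart from the rest.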

How the results depend on the processing

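With the deposited values, equal medians and cyclic loess, medians of all 54 lists and the differences of 58 named genes moved by less than the spread among probe sets of a gene. The sign changed for 3, 8 and 1 lists, none with a median farther from 0 than 0.14, and for 2 named genes, Rgs5 and Tcf25, both within 0.03 of 0. Equal medians moved the median of all probe sets to -0.06 and the split to 646 higher and 1053 lower (38.0% higher, against 47.8%). Counts followed the thresholds. A floor at the 25th percentile gave 1829 higher and 1893 lower probe sets and 134 agreeing genes (73 in the report); one at the 60th gave 434 and 506. At 1.5-fold there were 2224, 2120 and 255, and at 3-fold 179, 242 and 19. With 1 probe set a gene there were 529 and 601, and with no floor 5114 and 5205. The heart muscle median was -3.60 with no floor. The mast cell median, which rests on 1 measured gene, turned to 1.35 with the lower floor and 0.59 with none. Of 53 other probe sets of named genes, 26 lay within that spread of the brightest set. The sign differed for 10, of which 4 belong to genes with a brightest set at least 2-fold different: 1.53 for H2-K1, 1.04 and 1.40 for Sf3b2 and -0.53 for Xist. No paired analysis was possible because each group has 1 array, and for the same reason none could be left out. The number of arrays limits the precision.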

Other observations

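Gene groups that belong to no comparison above were read in the same way. Clock genes were split, with 5 of 16 measured members (31.25%) at least 1.5-fold higher and 4 (25%) lower on chow. Of all measured genes 20.8% were higher and 20.4% lower. By bound 2 more clock genes were lower. The clock activator Arntl gave signals of 272, 121, 209 and 182, in the order C57BL/6 chow, C3H chow, C57BL/6 Western and C3H Western. Npas2, another activator, gave 265, 118, 111 and 62.2, and its other probe set differed by 0.32. The clock-driven factor Tef gave 381, 936, 672 and 459.6, and Nfil3, which opposes it, gave 117, 273, 132 and 130.4. Glucocorticoid-responsive genes had 5 of 19 higher (26.3%) and 3 lower (15.8%), with 515, 178, 450.5 and 274 for Klf15 and 383, 444, 972 and 119 for Fkbp5. Of 8 measured heme genes 3 were higher and none lower, and 2 more, Ppox and Hmox1, were lower by bound. The higher genes were Alad, Alas1, the rate-limiting enzyme, at 670.5, 1807, 1131 and 1059 but with another probe set at -0.50, and Blvra, which reduces biliverdin, at 154, 559, 439 and 349.7.

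Glutathione transferases and peroxide defence genes were higher in 7 of 28 cases (25%) and lower in 7 (25%). Both are near the 20.8% and 20.4% of all measured genes. Sod3, the extracellular superoxide dismutase bound to matrix, gave 3207, 1347, 1750.3 and 1820.5, and Sod2, its mitochondrial counterpart, 4282, 6909, 4646 and 7076, with probe sets from -0.75 to 0.85. Cathepsins and lysosomal hydrolases were higher in 4 of 16 cases and lower in 7, with 321, 148, 235 and 249.9 for Ctsk, a protease of collagen and elastin, and 224, 475, 549 and 399 for the lysosomal lipase Lipa, whose other probe sets differed by -0.26 and -0.80.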
